A study of Mus musculus with 18 samples.

Results

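Clade B serpins are a family of protease inhibitors that stay inside the cell, and 6 of them were followed here: Serpinb9, Serpinb9b, Serpinb6a, Serpinb6b, Serpinb1a and Serpinb8. They were named as a list of mouse symbols and matched by Entrez gene identifier to both count tables, in which all 6 had counts, out of 24052 genes in each table. The list was chosen by measured values: it was drawn up around Serpinb9 because Serpinb9 and Serpinb9b stood out in the difference between dimethyl itaconate and vehicle in these same libraries. The values of that contrast are therefore given as a description with no test.

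The 18 libraries are 3′ end counts of polyadenylated RNA from bone marrow-derived macrophages of C57BL/6 background, matured with 20 ng/ml murine M-CSF. Experiment 1 used wild-type cells in 4 groups of 3: vehicle with no stimulus (called vehicle), 0.25 mM dimethyl itaconate for 12 h (compound), vehicle and then 100 ng/ml LPS of E. coli 0111:B4 for 4 h (LPS), and the compound followed by the same LPS (compound plus LPS). Dimethyl itaconate is an ester of itaconate, and LPS is the bacterial endotoxin sensed by Toll-like receptor 4. Experiment 2 compared 3 libraries of Irg1-/- cells (knockout) with 3 of wild-type cells, all stimulated for 24 h with LPS (100 ng/ml) together with interferon gamma (50 ng/ml), so its controls carry the stimulus too and there is no resting group. Irg1, now called Acod1, encodes the enzyme that makes itaconate. The labels do not say which part of the gene is deleted, nor whether replicates are separate animals or cultures, so p-values measure only the spread between these libraries.

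A serpin offers a flexible reactive loop as bait. When a protease cuts the loop, the serpin refolds and traps the enzyme in a covalent complex, so each inhibitor molecule works once. Clade B members lack a classical secretion signal and guard the cytosol and nucleus, in leukocytes above all against proteases that leak from granules. Serpinb9 inhibits granzyme B, the death-inducing protease of cytotoxic lymphocytes, and protects the cells that carry or meet it. Serpinb9b is a mouse paralogue reported to inhibit granzyme M, and Serpinb6b a candidate inhibitor of granzyme A. Serpinb6a is the mouse counterpart of human SERPINB6, which inhibits cathepsin G, and Serpinb1a that of human SERPINB1, which inhibits neutrophil elastase, cathepsin G and proteinase 3. Serpinb8 is the counterpart of human SERPINB8, an inhibitor of furin-type proteases.

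Of the 6 genes, 5 lie on chromosome 13 of build GRCm38 (mm10), within 1160.7 kb. Serpinb1a (Entrez gene 66222) spans 32842092 to 32853206, Serpinb6b (20708) 32956811 to 32979067, Serpinb9 (20723) 32997061 to 33017955, Serpinb9b (20706) 33027414 to 33040588 and Serpinb6a (20719) 33917918 to 34002794. Serpinb8 (20725) lies apart on chromosome 1, 107589926 to 107608978. Start windows of Serpinb9 and Serpinb9b are shown because these neighbours shared the pattern that the results turn on. Each window runs from 250 bases before to 50 bases after a transcription start in RefSeq (GRCm38.p6, plus strand, chr13:33004291-33004590 and chr13:33027164-33027463). The Serpinb9 window lies at an internal start, inside the gene span that begins at 32997061. The Serpinb9b window holds the first base of its span. Capitals mark runs of 8 or more bases that were identical in a global alignment of the pair.
Serpinb9: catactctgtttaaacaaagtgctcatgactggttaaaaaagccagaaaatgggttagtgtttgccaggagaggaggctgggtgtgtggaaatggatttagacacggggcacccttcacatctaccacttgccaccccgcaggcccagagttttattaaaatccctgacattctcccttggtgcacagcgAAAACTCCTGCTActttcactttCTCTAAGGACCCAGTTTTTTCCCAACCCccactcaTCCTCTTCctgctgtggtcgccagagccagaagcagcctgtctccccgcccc
Serpinb9b: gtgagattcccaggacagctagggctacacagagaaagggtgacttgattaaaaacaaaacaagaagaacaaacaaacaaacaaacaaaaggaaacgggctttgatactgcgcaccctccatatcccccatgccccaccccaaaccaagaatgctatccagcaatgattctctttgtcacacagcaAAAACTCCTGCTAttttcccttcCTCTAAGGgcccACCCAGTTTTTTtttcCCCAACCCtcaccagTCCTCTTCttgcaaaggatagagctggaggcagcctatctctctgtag

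The windows of Serpinb9 and Serpinb9b were identical at 187 of 300 bases (62.3%), while the other pairs among the members with a window shared between 43.3% and 51.7%. The 49 capital bases of each window lie close to the start site. Both strands of the windows of 5 members were searched for 4 short motifs. Of these, the AP-1 motif TGANTCA and the antioxidant-response core TGACNNNGC can overlap. The Serpinb9 and Serpinb6b windows lie inside the gene spans, so the sequence before the outermost base of these genes was not searched. TGACNNNGC, the core bound by NRF2 dimers, was in neither the Serpinb9 nor the Serpinb9b window. It occurred once, 181 bases upstream of a second Serpinb6a start, while 12.4% of 32851 promoter windows held it. The interferon-response core, written as 2 copies of GAAA parted by any 2 bases, occurred 46 bases upstream in Serpinb9, as TTTCACTTTC, and 84 bases upstream in Serpinb6a, against 3.44% of all windows. TGANTCA occurred in Serpinb8 alone of these windows (7.81% of all), and the loose NF-kB pattern, GGG and CC parted by any 5 bases, in Serpinb9b, Serpinb6a and Serpinb8 (50.8% of all). A match is a run of letters and says nothing of binding.

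Serpinb9 and Serpinb9b are alike enough that reads could be assigned to the wrong copy. In the last 500 bases of the longest coding transcripts of GENCODE M21, no stretch of 50 bases of any of the 6 genes occurred in another gene. At 25 bases, 20.2% of the stretches of Serpinb9b were also present in Serpinb9, 3.99% of those of Serpinb9 occurred in other genes (none of them Serpinb9b), and 8.40% of those of Serpinb6a occurred in its relatives. The read length is not given in the sources used here, so the values of Serpinb9, Serpinb9b and Serpinb6a are uncertain to that extent.

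Library totals ran from 955718 to 7629669 counts in experiment 1, and from 3088644 to 5491684 in experiment 2. LPS replicate 3 was the shallowest and stood apart: its counts differed from those of the other LPS libraries by a chi-square of 72.5 and 80.8 per degree of freedom, against 13.8 to 37.0 for the 16 other replicate pairs. Of the markers of mouse macrophages all 8 had counts in every group, with sums of 7519 to 10530 CPM in vehicle, 3460 to 5051 in compound, 2951 to 3888 in LPS and 3414 to 4618 CPM in compound plus LPS libraries. Sums of marker lists use unscaled library totals, while CPM of single genes are scaled by TMM. Tested gene by gene on scaled totals, 2 of 8 macrophage markers rose with LPS (Cd14 and Fcgr1) and 2 fell (Csf1r and Lyz2). Their median log2 was -0.16, and 16% of all genes rose and 18.4% fell. With the compound alone none of 8 rose and 2 fell (median log2 -0.84), where 1.33% of all genes rose and 1.51% fell. T and NK cell markers, of cells in which Serpinb9 is abundant, summed to at most 3.19 CPM in any library, with Cd8a, Nkg7, Ncr1, Klrb1c and Prf1 at 0 in all groups. Neutrophil markers summed to 350 to 517 CPM in vehicle libraries, 179 to 320 in compound libraries, 149.6 to 289.8 in LPS libraries and 215 to 338 in libraries given both, and those of dendritic cells to at most 9.87 CPM in experiment 1 and 25.25 CPM in experiment 2. Stromal markers summed to 41.8 to 73.6 CPM in vehicle, 23.0 to 30.2 in compound, 15.3 to 40.4 in LPS and 20.2 to 32.9 CPM in compound plus LPS libraries. Tested gene by gene against vehicle, none of 5 neutrophil and 4 stromal markers was called with LPS (median log2 -0.02 and 0.04). With the compound none was called either (median log2 -0.73 and -0.97). The part of these cell types in the results was not tested, and fewer cells of a type cannot be told apart from less RNA per cell. In experiment 2 the targeted gene was at 28.5, 14.9 and 31.5 CPM in the knockout libraries, all below the wild-type range of 4142 to 4676.5 CPM.

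**Figure D1:**
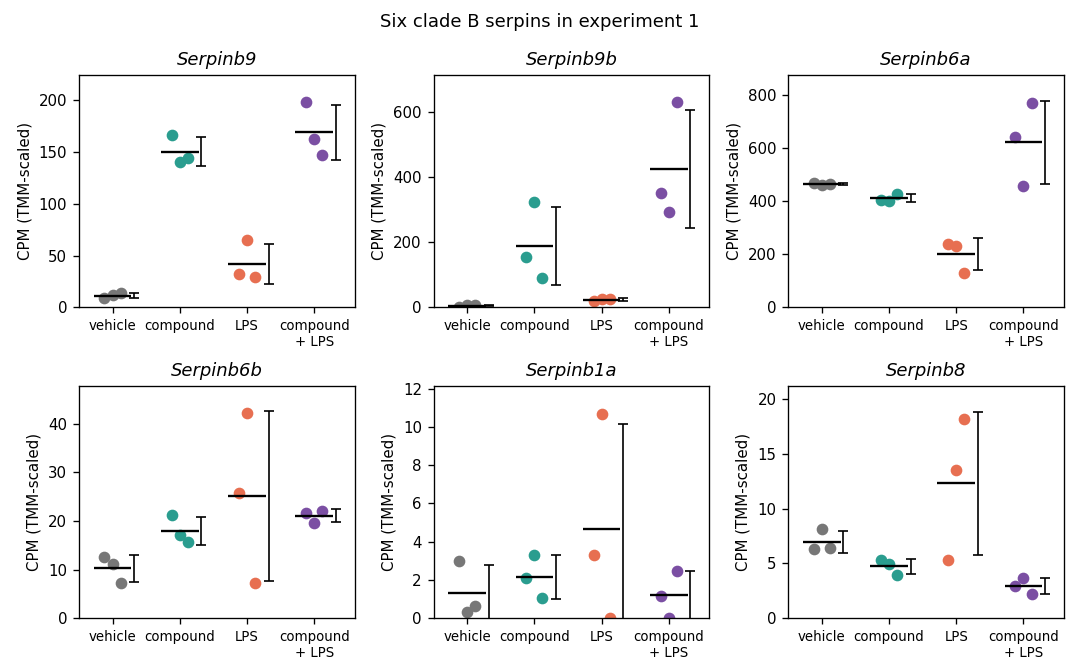
CPM (counts scaled to library size by TMM) of the 6 serpins in the 12 libraries of experiment 1; points are libraries, lines group means and bars ± 1 SD (n = 3, cut off at 0). Serpinb9 and Serpinb9b are high in both groups that received the compound, Serpinb6a is lowest with LPS alone, and Serpinb8 is lowest with compound plus LPS.

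Serpinb9, the granzyme B inhibitor, was high wherever the compound was present. Its CPM were 9.05, 11.6 and 13.8 with vehicle, 166, 141 and 144 with compound, 32.2, 64.7 and 29.1 with LPS, and 198, 162 and 147 with compound plus LPS. The order of the means was compound plus LPS (169 ± 26.5, SD, n = 3), compound (150 ± 14.1), LPS (42.0 ± 19.7) and vehicle (11.5 ± 2.37). The first pair overlapped, and every later step in that order separated the libraries without overlap. Shares of all genes set apart are not given here for compound against LPS or for compound plus LPS against compound. For every member, steps between these groups are descriptions from which nothing is read. As a description, the fitted log2 difference from vehicle was 3.71 ± 0.36 (SE) with the compound and 1.90 ± 0.35 with LPS. In the compound contrast, 2.84% of all genes tested passed (1.33% higher, 1.51% lower), and 14.6% had all compound libraries above all vehicle libraries and 16% below, with nothing read from these shares for the genes that the contrast singled out.

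Serpinb9b, its paralogue, spanned a wider range. It was at 2.72, 6.13 and 7.22 CPM with vehicle, 153.8, 324 and 91.1 with compound, 18.9, 26.4 and 25.5 with LPS, and 351, 295 and 631 with compound plus LPS. Compound plus LPS (426 ± 180) and compound (190 ± 120) overlapped, while LPS (23.6 ± 4.09) lay below both and above vehicle (5.36 ± 2.34). The fitted log2 difference from vehicle, given without a test, was 5.18 ± 0.53 with the compound and 2.15 ± 0.51 with LPS.

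Serpinb6a, the cathepsin G inhibitor, went the other way with LPS alone. Its CPM were 466, 459 and 466 with vehicle, 402, 402 and 427 with compound, 238, 230.0 and 131 with LPS, and 639, 457 and 768 with compound plus LPS. All compound libraries were below all vehicle libraries, by a fitted log2 difference of only -0.18 ± 0.29, and all LPS libraries were lower still. Compound plus LPS (621 ± 156) and vehicle (464 ± 3.86) overlapped.

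The 3 remaining members were low in experiment 1. Serpinb6b, the candidate granzyme A inhibitor, was at 12.6, 11.2 and 7.22 CPM with vehicle, 21.2, 17.2 and 15.6 with compound, 25.9, 42.2 and 7.27 with LPS, and 21.6, 19.6 and 22.1 with compound plus LPS. Only vehicle and compound were neighbours without overlap, and the LPS libraries spanned nearly all values of the other groups. Serpinb8 was at 6.32, 8.17 and 6.41 CPM with vehicle, 5.30, 4.96 and 3.99 with compound, 5.31, 13.5 and 18.2 with LPS, and 2.94, 3.68 and 2.18 with compound plus LPS. LPS (12.3 ± 6.52) and vehicle (6.97 ± 1.04) overlapped, and compound (4.75 ± 0.68) and compound plus LPS (2.93 ± 0.75) followed without overlap, the last step with no share of all genes to set beside it. Serpinb1a had 31, 1 and 4 counts with vehicle, 18, 20 and 10 with compound, 10, 19 and 0 with LPS, and 6, 0 and 8 with compound plus LPS, and all 4 groups overlapped in CPM. In a single library of experiment 1, a count of 0 allows up to 0.292 to 5.45 CPM on this scale (3 counts), the highest limit being that of LPS replicate 3, and a limit that covers counting error only.

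Compound plus LPS against LPS asked whether the compound still moved these genes in stimulated cells. These libraries are not part of the contrast named above, although the list was drawn up with earlier results of the whole series known. Both granzyme inhibitors and Serpinb6a rose. Serpinb9b was 18.3-fold higher (log2 4.19 ± 0.51, SE; adjusted p = 2.7e-05), Serpinb9 3.96-fold higher (log2 1.98 ± 0.34; adjusted p = 0.00063) and Serpinb6a 3.09-fold higher (log2 1.63 ± 0.30; adjusted p = 0.0013), each with all 3 compound plus LPS libraries above all 3 LPS libraries. Serpinb8 fell 3.87-fold (log2 -1.95 ± 0.58; adjusted p = 0.029), again without overlap. Of the macrophage markers 1 of 8 moved in the same comparison, the Fc receptor gene Fcgr1, which fell 8.27-fold (adjusted p = 4.9e-06). Of 5 neutrophil markers tested 1 moved, S100a8, which rose 2.50-fold (adjusted p = 0.013). Of 4 stromal markers tested 1 moved, Col3a1, which fell (log2 -4.86 ± 0.92; adjusted p = 0.0016), with 5 counts in the whole compound plus LPS group. Groups apart in this way were seen for 18.9% of all genes tested in the higher and 10.7% in the lower direction. So 3 of 6 members rose and 1 fell, 4 of 6 in all, where 15.9% of all genes passed. Of the 10285 genes tested, 8.38% were called higher and 7.53% lower. The median log2 difference was 0.64 over the members and 0.13 over all genes. Serpinb9 and Serpinb9b, both among the risers, were picked by their response to the same compound without LPS. Nothing is therefore read from these shares and medians for the list as a whole.

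Serpinb6b and Serpinb1a did not pass in that comparison. Serpinb6b differed by log2 -0.34 (95% interval -1.26 to 0.57; adjusted p = 0.64) and Serpinb1a by -2.08 (-4.37 to 0.21; adjusted p = 0.21), an interval wide enough to hold both no change and a large decrease. Without LPS replicate 2 its difference was -0.96, without compound plus LPS replicate 3 it was -2.93. The Serpinb8 call rested on 10 to 24 counts per LPS library. It was lost when any of LPS replicates 2 and 3 or compound plus LPS replicates 1, 2 and 3 was left out (adjusted p between 0.052 and 0.095), with only these groups in the fit (adjusted p = 0.15) and with replicate number as a block (adjusted p = 0.051). The calls of Serpinb9, Serpinb9b and Serpinb6a held in every alternative run, at adjusted p of at most 0.014, 0.00050 and 0.022.

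**Figure D2:**
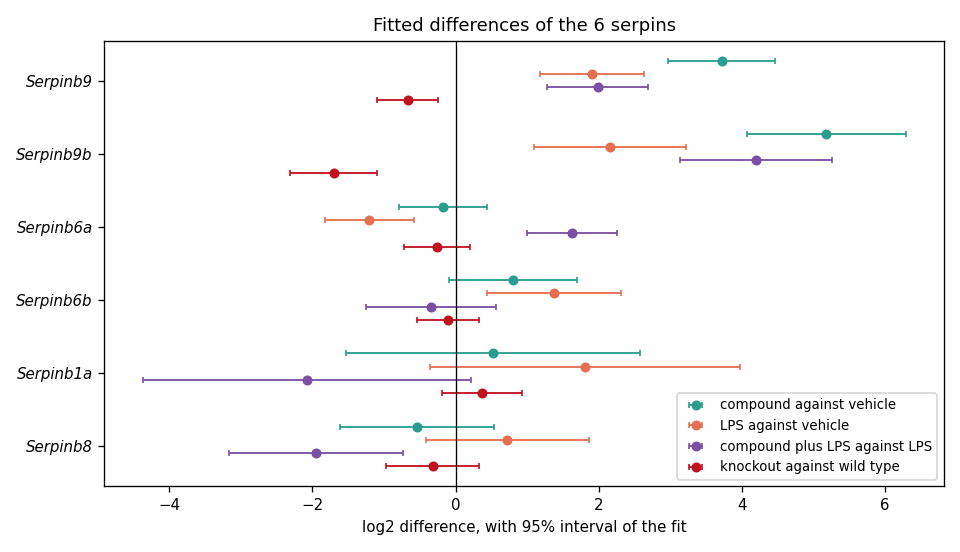
Fitted log2 differences of the 6 serpins (points) with 95% intervals of the fit (bars) in 4 comparisons; the compound-against-vehicle values, and those of Serpinb9 and Serpinb9b for LPS against vehicle, are descriptions. Serpinb9b and Serpinb9 lie to the right of 0 with the compound and with LPS and to the left in the knockout, and Serpinb6a lies to the left with LPS and to the right for compound plus LPS against LPS.

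LPS against vehicle asked how the endotoxin alone acted, and was tested for the 4 members other than Serpinb9 and Serpinb9b. Serpinb6a fell 2.30-fold (log2 -1.20 ± 0.30; adjusted p = 0.0045), with no overlap between the groups, as for 27.4% of all genes in that direction and 16.6% in the other. Serpinb6b rose 2.59-fold (log2 1.37 ± 0.44; adjusted p = 0.023), although its LPS replicate 3, with 4 counts, lay within the vehicle range. So 1 of 4 rose and 1 fell, where 34.3% of all genes passed: 16% of the genes tested were called higher and 18.4% lower. Serpinb8 (log2 0.72, 95% interval -0.42 to 1.86; adjusted p = 0.33) and Serpinb1a (1.81, -0.36 to 3.97; adjusted p = 0.19) did not pass. The Serpinb1a difference was 0.69 without LPS replicate 2 and 3.24 without vehicle replicate 1. Without LPS replicate 2 or without vehicle replicate 3, the Serpinb6b call was lost (log2 0.89 and 1.15; adjusted p = 0.15 and 0.11), as it was with only these groups in the fit (adjusted p = 0.13).

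The compound contrasts without and with LPS are set side by side here. For Serpinb6a the compound effect was -0.18 on the log2 scale without LPS and 1.63 with LPS, a difference of 1.80 ± 0.42. For Serpinb9 it was 3.71 without and 1.98 with LPS, a difference of -1.73 ± 0.46, and for Serpinb9b 5.18 and 4.19, a difference of -0.99 ± 0.65 with a 95% interval of -2.36 to 0.39. The differences of Serpinb6b (-1.15 ± 0.61), Serpinb1a (-2.60 ± 1.47) and Serpinb8 (-1.41 ± 0.77) also had intervals that held 0. These differences hold the contrast that singled out Serpinb9 and Serpinb9b, and were not tested. The effect of LPS in compound-treated cells, also without a test, was 0.17 ± 0.31 for Serpinb9, 1.17 ± 0.43 for Serpinb9b and 0.60 ± 0.29 for Serpinb6a. For Serpinb9 the 95% interval was -0.49 to 0.83, and the compound libraries with and without LPS overlapped.

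**Figure D3:**
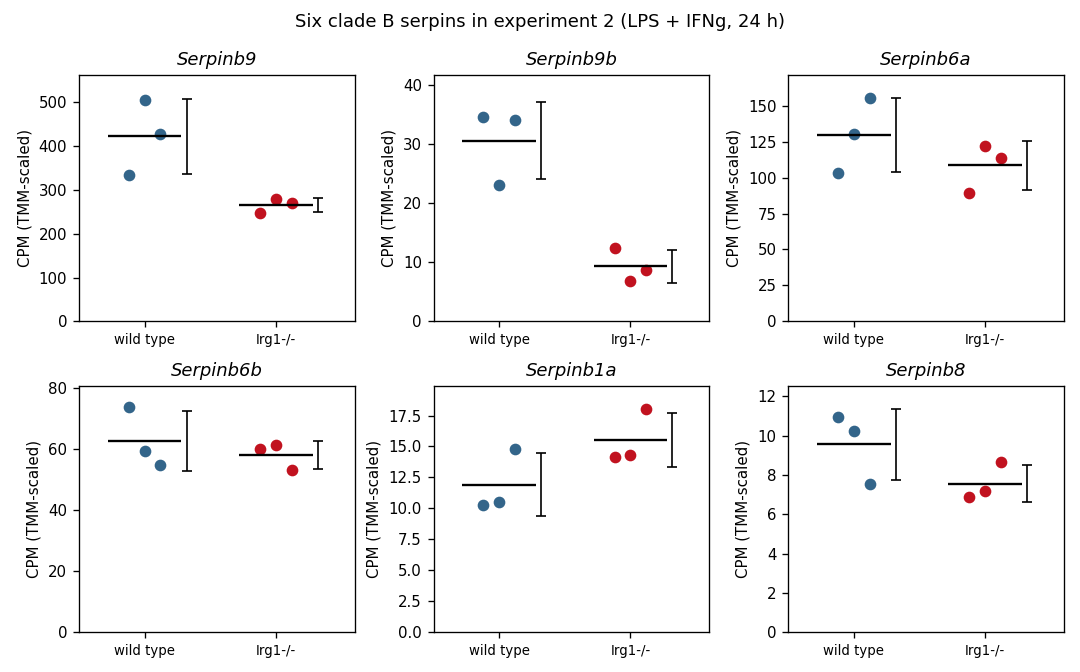
CPM (scaled by TMM) of the 6 serpins in experiment 2, 24 h after LPS and interferon gamma; points are libraries, lines group means and bars ± 1 SD (n = 3). The Irg1-/- libraries of Serpinb9 and Serpinb9b all lie below the wild-type libraries, and the groups overlap for the other 4 genes.

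Knockout against wild type asked whether Irg1-/- cells had less of these transcripts after 24 h of LPS and interferon gamma. Serpinb9b was at 12.4, 6.90 and 8.66 CPM in the knockout and 34.6, 23.0 and 34.1 in wild type, 3.25-fold lower (log2 -1.70 ± 0.28). Serpinb9 was at 247, 279.7 and 271 CPM in the knockout and 333, 505 and 428 in wild type, 1.59-fold lower (log2 -0.67 ± 0.20). For both, every knockout library was below every wild-type library, as it was for 7.23% of the 9491 genes tested, against 6.13% in the other direction.

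Whether these differences pass depends on how the replicates enter the model. Without a term for replicate number, 0 of 6 members were called by edgeR, with Serpinb9b at adjusted p = 0.053 and Serpinb9 at 0.42, where 0.0632% of genes were called (0.0105% higher, 0.0527% lower). At an unadjusted p under 0.05 there were 2 members, against 7.01% of all genes. DESeq2 called 1 member, Serpinb9b (adjusted p = 0.00019), against 0.379% of all genes. Same-numbered libraries deviated together in all 3 pairs, and with that pairing as a block 6.26% of genes were called, 3.36% as lower and 2.9% as higher. The pairing was read from these same libraries, not from the labels, so p-values of the blocked fit depend on that choice. In the blocked fit both granzyme inhibitors fell: Serpinb9b by 1.73 on the log2 scale (SE 0.21; adjusted p = 1.7e-07) and Serpinb9 by 0.65 (SE 0.10; adjusted p = 1.5e-05). Summed as 1 gene, they differed by -0.72 without the block (adjusted p = 0.33). Macrophage markers moved too in the blocked fit: 3 of 8 fell (Cd14, Cd68 and Lyz2) and 1 rose (Itgam), while none was called without the block. Their sums were 2092 to 2738 CPM in the knockout and 2282 to 2714 CPM in wild type. The part of these shifts in the serpin differences was not tested.

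The other 4 members did not pass in either fit. Serpinb6a was at 89.6, 122 and 114 CPM in the knockout and 103, 130 and 155 in wild type (log2 -0.26, 95% interval -0.72 to 0.20; adjusted p = 0.94). Serpinb6b was at 60.0, 61.3 and 53.0 CPM against 73.8, 59.5 and 54.7 (log2 -0.11, -0.53 to 0.32; adjusted p = 0.98). Serpinb1a, at 14.1, 14.3 and 18.01 CPM against 10.3, 10.5 and 14.8, was the 1 member with a positive estimate (log2 0.37, -0.19 to 0.93; adjusted p = 0.90). Serpinb8 was at 6.87, 7.17 and 8.66 CPM against 11.0, 10.2 and 7.52 (log2 -0.32, -0.97 to 0.32; adjusted p = 0.94). Over the 6 members the median log2 difference was -0.29, and over all genes 0.01.

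The balance between the paralogues can be read within a library, where scaling plays no part. Serpinb9b made up 23.1%, 34.6% and 34.4% of the counts of both genes with vehicle, 48.0%, 69.7% and 38.8% with compound, 37.0%, 29.0% and 46.7% with LPS, and 63.9%, 64.5% and 81.1% with compound plus LPS. Its share was thus higher in every compound plus LPS library than in every LPS library, although the 95% interval (exact binomial, counting error only) of LPS replicate 3, with 30 counts, reached from 28.3% to 65.7%. In experiment 2 it was 9.40%, 4.36% and 7.38% in wild type and 4.78%, 2.41% and 3.10% in the knockout. As groups these overlapped, and within each of the 3 pairs of same-numbered libraries the knockout had the lower share. At 24 h with interferon gamma, Serpinb9 therefore supplied over 90% of the pair's counts in all 6 libraries. The experiments differ in time and stimulus and were counted in separate tables, so no test was made between them.

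**Figure D4:**
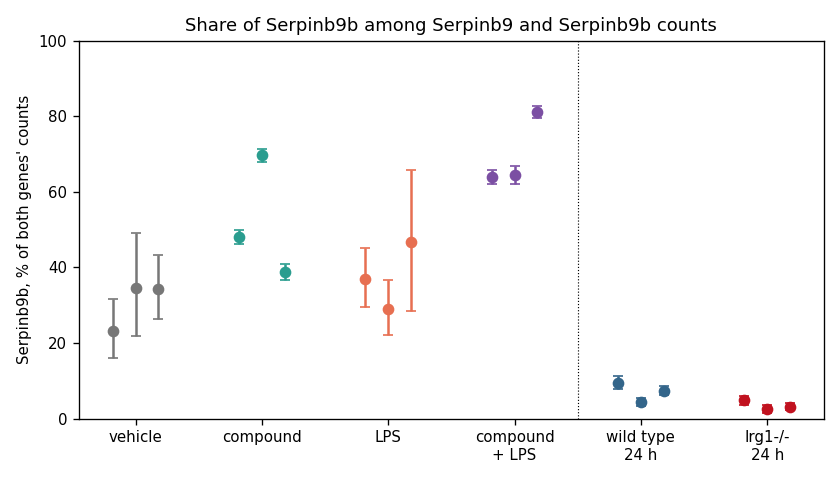
Share of Serpinb9b, in percent of the counts of Serpinb9 and Serpinb9b together, in each of the 18 libraries; bars are exact 95% binomial intervals and the dotted line parts the experiments. The compound plus LPS libraries lie between 63.9% and 81.1%, and all libraries of experiment 2 below 10%.

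The genes with the most similar profiles over the 12 libraries of experiment 1 were found by Pearson's r of log2 CPM, as a description over libraries that share their treatments. For Serpinb9 these were Serpinb9b (r = 0.952), Bst1 (0.939), Kmt5a (0.939), Ednrb (0.937) and Slc30a1 (0.937). For Serpinb9b they were Fabp7 (0.966), a fatty acid-binding protein, Slc30a1 (0.952), a zinc exporter, Serpinb9 (0.952), Hsp90aa1 (0.95), a cytosolic chaperone, and Pgd (0.937), an enzyme of the pentose phosphate pathway. Serpinb9 and Serpinb9b were picked by their difference between compound and vehicle, whose libraries are among these 12. A high r between Serpinb9 and Serpinb9b was therefore partly set by that choice, and nothing is read from it. At 25 bases, 20.2% of the stretches at the end of Serpinb9b also occur in Serpinb9, and their part in this r was not tested. Among the members, Serpinb6a and Serpinb8 ran opposite (r = -0.846), and Serpinb9 had r of 0.274 with Serpinb6a and 0.563 with Serpinb6b.

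Most other genes of the family had no counts. Of 21 further clade B genes in the tables, 14 had no count in any library, among them 7 of the 8 other Serpinb9 and Serpinb6 genes. In experiment 1, 3 had enough counts to test. Serpinb1b, a paralogue of Serpinb1a on the far side of Serpinb9b, was at 0.88, 0 and 2.08 CPM with vehicle, 9.66, 6.28 and 14.5 with compound, 5.31, 7.31 and 10.9 with LPS and 11.8, 12.6 and 6.84 with compound plus LPS. As a description, its log2 difference between compound and vehicle was 3.19 ± 0.66, with no overlap. It rose with LPS (log2 2.70 ± 0.72; adjusted p = 0.0075), and its difference between compound plus LPS and LPS did not pass (log2 0.52, 95% interval -0.82 to 1.87; adjusted p = 0.63). Serpinb2, which encodes the plasminogen activator inhibitor PAI-2, had no count with vehicle and 34, 23 and 0 with LPS, at least 69.2-fold higher by counts pooled over the group (adjusted p = 0.00054), with its LPS replicate 3 at 0. Serpinb2 passed the count filter only through the groups given LPS, so its p-value is partly set by that filter and nothing is read from it. Serpinb1c passed in neither LPS against vehicle nor compound plus LPS against LPS (adjusted p = 0.44 and 0.15).

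**Figure D5:**
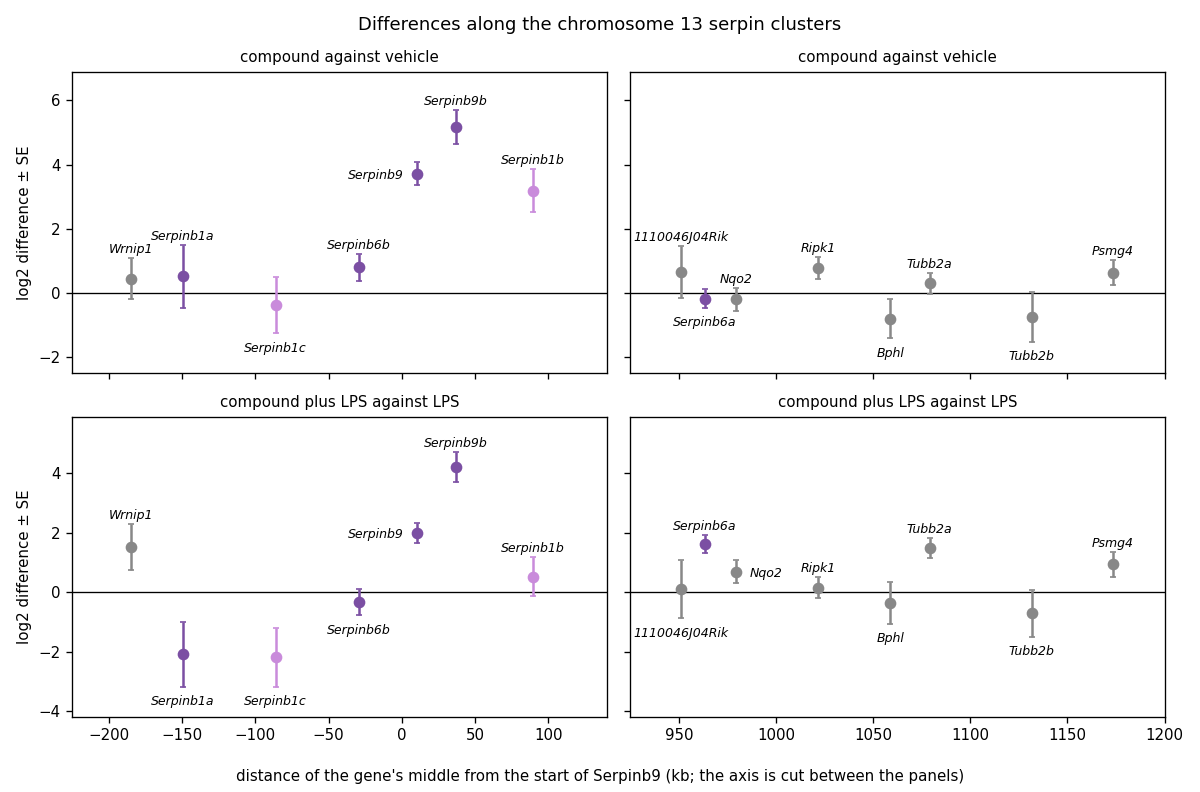
Fitted log2 differences (± SE) of the 15 tested genes around the chromosome 13 clusters. They are set against the distance of each gene's middle from the start of the Serpinb9 gene span (32997061) in kb. Rows are compound against vehicle (top, a description) and compound plus LPS against LPS (bottom). Dark purple marks the 6-gene list, light purple other clade B serpins, grey other genes. Serpinb9 and Serpinb9b stand high in both rows, between Serpinb6b and Serpinb1b. The differences of Serpinb6b and Serpinb1b are 0.80 and 3.19 in the top row, and -0.34 and 0.52 in the bottom row.

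Genes that start within 300 kb of these clusters or of Serpinb8 and are no clade B serpins were counted as well, 8 of them tested in experiment 1. In compound plus LPS against LPS, 1 of 8 rose, the tubulin gene Tubb2a (log2 1.48 ± 0.34; adjusted p = 0.0069), and none fell, where 15.9% of all genes were called. With LPS alone Nqo2, a quinone reductase next to Serpinb6a, and Tubb2a fell (log2 -1.28 ± 0.39 and -0.96 ± 0.34; adjusted p = 0.017 and 0.037), 2 of 8 where 18.4% of all genes fell, and none of 7 was called in the knockout by edgeR with or without the block.

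The granzymes and neutrophil proteases that some of these serpins are known to hold in check had few or no counts in these libraries. Furin-type proteases, which human SERPINB8 inhibits, were not among the genes looked up. None of 10 granzyme and perforin genes had enough counts to test, and all 10 together had 6 to 25 counts per group. Gzmb, the target of Serpinb9, had no count with vehicle or compound, 8 with LPS and 6 with compound plus LPS, and Gzmm, the target of Serpinb9b, 10, 16, 0 and 0 in the same order. The neutrophil proteases Elane, Ctsg and Prtn3 had 3 to 37 counts per group together. Lysosomal cathepsins were mostly abundant, but Ctsk had group means of 1.11 to 8.79 CPM in experiment 1. With LPS 1 of 9 moved in each direction, where 16% of all genes rose and 18.4% fell. Ctsc, the peptidase that activates granzymes and neutrophil proteases, rose (log2 3.01 ± 0.36; adjusted p = 3.7e-06), and Ctsb fell (log2 -0.97 ± 0.31; adjusted p = 0.023). In compound plus LPS against LPS, Ctsc fell (log2 -1.43 ± 0.34; adjusted p = 0.0078) and no other cathepsin passed. Among caspases, which human SERPINB1 also restrains, 5 of 6 rose with LPS, against 16% of all genes. For compound plus LPS against LPS 4 of 6 fell, against 7.53% of all genes, among them Casp8 (log2 -2.11 ± 0.35; adjusted p = 0.00047) and Casp4 (log2 -1.16 ± 0.31; adjusted p = 0.018). In the knockout none of 8 cathepsins and 6 caspases was called without the block, and 4 cathepsins, Ctsb, Ctsd, Ctsh and Ctsl, fell with it, where 3.36% of all genes fell.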

How the data were processed

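The authors deposited 2 tables of raw counts per Entrez gene, which are whole numbers with a different total in each library. Per the labels' protocols, libraries were made from oligo-dT primed, barcoded cDNA and amplified by PCR. No molecular identifiers are described there. STAR, HTSeq, DESeq2 and mm10 are named in the submitters' processing notes, while the annotation and counting options are not given in the sources used here. Symbols were matched for 23969 of 24052 genes by RefSeq's GRCm38.p6 table.

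Each experiment was fitted over all its groups in edgeR 4.0.16 (R 4.3.3), after scaling by TMM (factors 0.576 to 1.47 and 0.967 to 1.05) and a filter by filterByExpr with a minimum count of 10, by the 2-sided quasi-likelihood F test. This left 10285 and 9491 genes, with all 6 members in both. The Benjamini-Hochberg adjustment ran over every gene in the fit, with calls at an adjusted p-value under 0.05. Standard errors were derived from the F statistic. CPM use TMM-scaled totals, sums of marker lists unscaled totals. The script was tested on simulated data. In experiment 2, same-numbered libraries correlated in their deviations from the group mean (0.354 to 0.455), so replicate number was also fitted as a block. This pairing comes from the data, not the labels. The members and gene lists were chosen with earlier results of these data known. Named were the members, genes of the lists that passed or whose role needed them, neighbours within 300 kb and the 5 most alike profiles. DESeq2 1.42.0 served as an alternative.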

Additional observations from a re-analysis of the deposited data

Results flagged for a closer look

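Serpinb6a was singled out because all 3 compound libraries lay below all 3 vehicle libraries, as for 16% of all genes, and all 3 compound plus LPS libraries lay above all 3 LPS libraries, as for 18.9%. The fitted effect without LPS was small, at -0.18 on the log2 scale with a 95% interval of -0.79 to 0.44. The compound effect with LPS exceeded that without by 1.80 on the log2 scale (SE 0.42), and this difference was not tested. Without LPS replicate 3, the shallowest library, the effects were 1.39 with LPS and -0.15 without.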

How the results depend on the processing

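The members' directions held in every alternative except for Serpinb6b, which turned to 0.15 without LPS replicate 2 (compound plus LPS against LPS) and to 0.026 without wild type replicate 1 (knockout against wild type). Its ranges when leaving out 1 library were -0.69 to 0.15 and -0.19 to 0.03, and 0.89 to 1.73 for LPS against vehicle. With only the 2 groups compared, 653 rather than 1636 genes were called for compound plus LPS against LPS and 2108 rather than 3529 for LPS against vehicle, and the calls of Serpinb8 (-2.02) and of Serpinb6b with LPS (1.39) were lost. The cause was not tested. Leaving out 1 library gave 885 to 1948 calls and a Serpinb8 difference of -2.32 to -1.64 for compound plus LPS against LPS, and 3 to 6 calls for knockout against wild type. In experiment 2, where 6 genes were called, DESeq2 called 36, no low-count filter gave 40 and the replicate block gave 594 (275 higher, 319 lower). Serpinb9b was then called at -1.69, -1.70 and -1.73, and Serpinb9 at -0.65 with the block. That block changed no other member's call. In experiment 1 numbers did not meet the rule for pairing: correlations lay between 0.097 and 0.174 for LPS and compound plus LPS and between 0.0581 and 0.21 for vehicle and compound, where 6 of 6 libraries correlated best with their own number in each, and as low as -0.141 among the other group pairs. With a block there, 1464 genes were called and Serpinb8 was not (-1.92, adjusted p = 0.051). Depth limits Serpinb1a, Serpinb6b and Serpinb8 most, as LPS replicate 3 held 0, 4 and 10 of their counts.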

Other observations

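Serpinb12, a further clade B serpin known from epithelia, was too low to test with all libraries. It had 2, 3 and 1 counts with vehicle, 4, 8 and 6 with compound, 0 in all 3 LPS libraries, and 21, 12 and 5 with compound plus LPS. It was named after its values were seen.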
